A study of Rattus norvegicus with 12 samples.

Results

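Ribosomal protein genes of the anterior pituitary were read here on 12 expression arrays of male rats treated with diethylstilbestrol (DES), a synthetic estrogen that enlarges the pituitary of sensitive rat strains. A gene was taken as a ribosomal protein gene when its symbol in the platform annotation was *Rpl* or *Rps* followed by a number, or was *Rpsa*, *Rplp0*, *Rplp1* or *Rplp2*, and when at least 1 probe set carried that symbol alone. S6 kinase genes, *Rps19bp1* and symbols marked as pseudogenes were left out, and the brightest probe set stood for each gene. This gave 48 genes of the 14218 genes with a probe set of their own, 33 of the large ribosomal subunit and 15 of the small subunit. *Rplp1* and *Rplp2* had no probe set of their own, so of the stalk proteins *Rplp0* alone was followed.

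The animals belonged to 4 congenic lines named Ept1, Ept2, Ept6 and Ept9, each read on 3 arrays. A congenic line carries a segment of 1 strain on the genetic background of another, and in all 4 lines alleles of the COP strain had been moved onto the ACI background, on chromosome 6 in Ept1, on chromosome 3 in both Ept2 and Ept6, and on chromosome 10 in Ept9. Every male received a silastic implant of 5 mg DES at 9 weeks of age, carried it for 12 weeks, was injected with BrdU (50 mg/kg) 4 h before the end and was killed at 21 weeks. No untreated rat and no ACI rat was analysed here, so the comparison for a line was with the averaged means of the other 3 lines. The 4 contrasts therefore share arrays, and a shift in 1 line moves the contrasts of the others. The labels disagree on whether the 3 arrays of a line stand for 3 or for 2 independent replicates. They were counted as 3, so part of the spread behind the p-values may be technical.

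The ribosome builds every protein of the cell. Its small subunit reads the messenger RNA, its large subunit joins the amino acids, and ribosomal proteins fold and hold the ribosomal RNA of both. Their genes rank among the most strongly expressed genes of growing and secreting cells, and the cells of the anterior pituitary secrete protein hormones. In mammals most ribosomal protein messenger RNAs begin with a 5′ terminal oligopyrimidine tract (a 5′TOP), a C followed by a run of C and T bases, through which the mTOR pathway and the RNA-binding protein Larp1 regulate their translation.

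That feature is not part of how the genes were chosen. A run of C and T bases near the annotated start can be read from the RefSeq gene starts of the GRCr8 assembly. Such a run does not by itself place the tract described above. Of the 48 genes, 43 were found in the table of start sequences. The windows shown hold 30 bases on the gene's strand, 15 before and 15 from the annotated first transcribed base on, which is base 16. Capitals mark the longest run of C and T bases. The first 6 genes were picked from those on which the array values described further on turn, or which have a textbook role. The last 2 were picked because they show a start with a short run. Other genes with such array values or roles are not shown. Of them, *Rpl41* and *Rpl11* had a longest run of 3 bases, *Rps16* of 4 and *Rps6* of 6. It was 7 in *Rps3a*, 11 in *Rpl5* and 15 in *Rpl22*. Short runs were thus not confined to named copies.
*Rpl35a* (GRCr8 chr11:81235007-81235036, minus strand): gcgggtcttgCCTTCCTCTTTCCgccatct
*Rpl34* (GRCr8 chr2:221962269-221962298, minus strand): CCCCTTCCTTTTCCTCTTCCggggacggtg
*Rps24* (GRCr8 chr16:96502-96531, plus strand): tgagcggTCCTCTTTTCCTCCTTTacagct
*Rps23* (GRCr8 chr2:23814502-23814531, plus strand): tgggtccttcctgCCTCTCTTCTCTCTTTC
*Rpsa* (GRCr8 chr8:128728864-128728893, plus strand): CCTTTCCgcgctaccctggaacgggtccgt
*Rplp0* (GRCr8 chr12:46718376-46718405, minus strand): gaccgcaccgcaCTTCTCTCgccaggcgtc
*Rpl39l1* (GRCr8 chr10:5966607-5966636, minus strand): actgccaggccgTCCCgctatcctggtgtg
*Rps27l* (GRCr8 chr8:76443643-76443672, plus strand): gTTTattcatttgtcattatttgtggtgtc

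Runs of C and T crossed or neighboured the annotated start in most of these genes. A run of at least 7 such bases stood in the window of 29 of the 43 genes (67.4%), against 17.8% of the 27456 genes of the table. Runs that end before the annotated first base, as in *Rpsa*, were counted too, so this is not a count of transcribed tracts. The median longest run was 9 bases in the ribosomal protein genes and 4 bases over all genes. It was 17 bases in *Rps24* and *Rps23* and 20 in *Rpl34*, but 4 in *Rpl39l1* and 3 in *Rps27l*. The annotated first base was C in 17 genes (39.5%, all genes 24.2%). The motif CTTTCC, which lies inside such runs where it occurs in them, was searched on both strands of the 300 bases from 250 before the start to 50 after it. It was found on the gene's strand in 15 genes (34.9%, all genes 13.6%) and on the other strand in 5 (11.6%, all genes 14.5%). Within the 30-base window it stood in 9 genes (20.9%, all genes 1.30%). A match describes the letters of the reference sequence and was not tied to any array value.

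On the arrays the ribosomal protein genes fell into a bright and a dim set. Bright means here a mean signal over the 12 arrays of at least 10000, where signal is the deposited array intensity. The bright set held 39 genes, 27 of the large and 12 of the small subunit, and each lay within the top 1% of all probe sets, at percentiles from 99.1 to 99.99. Their mean signals ran from 12382 for *Rpl39l1*, named as a copy of *Rpl39*, through 19239 for *Rpl23a*, the next, to 41906 for *Rps29*. Probe sets bind their targets unequally, so this order is one of brightness and not of abundance.

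The 6 brightest genes were *Rps29* with a mean of 41906, *Rps23* with 40543, *Rpl7a* with 39332, *Rpl3* with 39057, *Rpl5* with 37960 and *Rps3a* with 36087. *Rps23* encodes a protein of the decoding centre, *Rpl3* one that reaches towards the peptidyl transferase centre, and *Rpl5* a protein that binds 5S ribosomal RNA together with *Rpl11*. *Rps29* ran from 38408 to 49225 over the 12 arrays and *Rps23* from 38037 to 46831. The highest signal of any probe set on an array was 43061 to 51767, so these genes lay near the top of the measured range. *Rps6*, whose protein is the substrate of the S6 kinases, ran from 28037 to 37038, and *Rplp0*, the base of the ribosomal stalk, from 28671 to 34098.

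**Figure D1:**
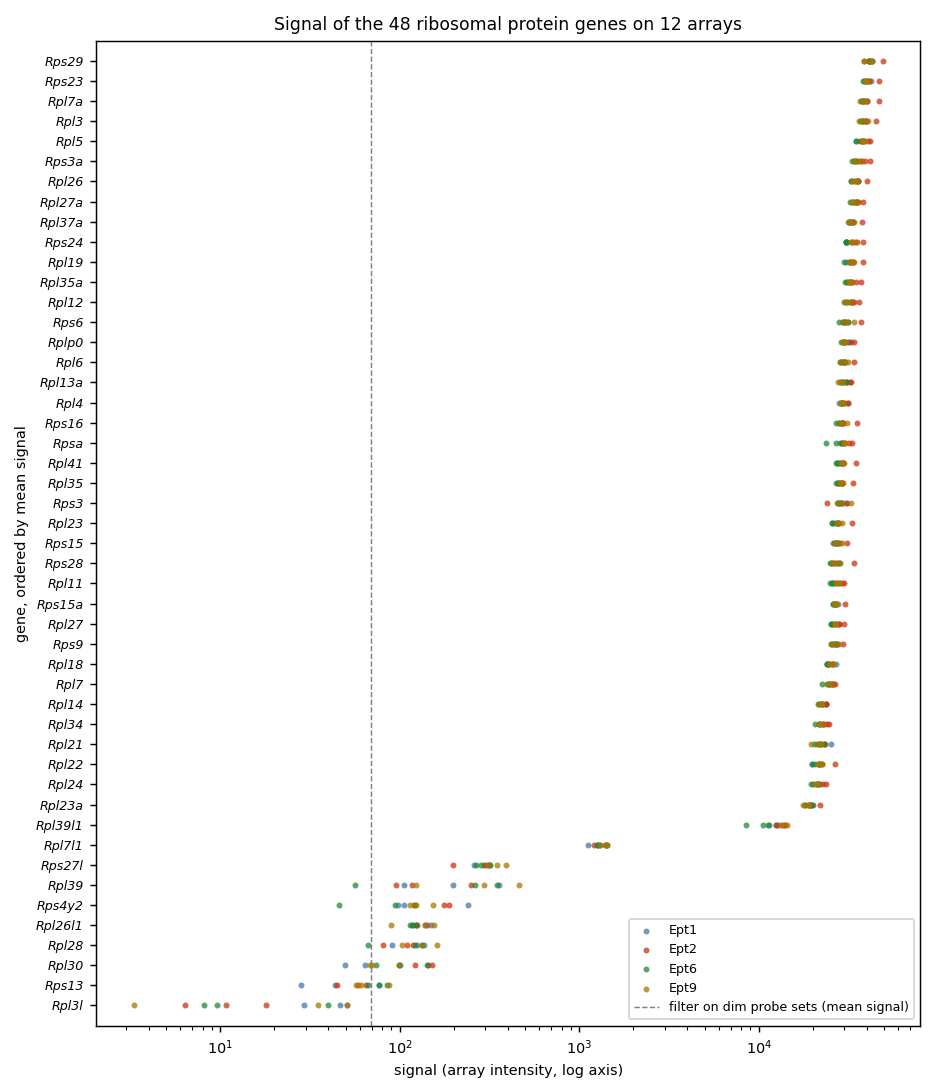
Signal of each of the 48 ribosomal protein genes (rows, ordered by mean signal) on the 12 arrays, on a log axis in units of array intensity, with 1 point per array coloured by line and the filter on dim probe sets (a mean signal of 69.5) as a dashed line. The 39 bright genes sit between means of 12382 and 41906 with little spread, and the 9 dim genes lie at means from 25.8 to 1318.

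The dim set held 9 genes. It contains genes whose names mark them as copies of a ribosomal protein: *Rpl3l*, the heart and skeletal muscle form of *Rpl3*, at a mean of 25.8, *Rpl26l1* at 128, *Rps4y2* at 132, *Rps27l* at 300 and *Rpl7l1*, a factor of ribosome assembly, at 1318. *Rpl26* itself had a mean of 35064 and *Rpl3* one of 39057, but between probe sets such values set no order of abundance. *Rps4y2* was placed on chromosome 4 of GRCr8, whatever its name says. The other dim genes were *Rps13* with a mean of 62.6, *Rpl30* with 98.6, *Rpl28* with 115 and *Rpl39* with 223. For *Rpl28*, *Rpl30* and *Rps13* other probe sets, left out because they also carry the symbols of further copies, gave means of 30219 for *Rpl28*, 23713 and 24754 for *Rpl30*, and 22847 for *Rps13*. The dim values of these 3 genes are thus values of 1 probe set each and do not stand for the gene. *Rpl39* too was read by 1 probe set, so its dim value need not stand for the gene. Whether the bright probe set of *Rpl39l1* also reads *Rpl39* was not tested. *Rpl3l* and *Rps13* lay below the filter and were not tested, which left 46 genes.

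No ribosomal protein gene passed the test between the lines. Under limma's moderated F test among the 4 lines, with Benjamini-Hochberg adjustment over all 18626 probe sets tested, 0 of 46 passed an adjusted p of 0.05, where 0.988% of all probe sets did. The lowest adjusted p of a member was 0.214, for *Rpl39l1*. At an unadjusted p under 0.05 the F test gave 2 genes, *Rpl39l1* and *Rpl30*, and 14.1% of all probe sets. Set against the other lines, 0 of 46 were called in Ept1 (background 0.193%), 0 in Ept2 (0.773%), 0 in Ept6 (0.161%) and 0 in Ept9 (0.666%). The unadjusted counts were 1 in Ept1 (*Rpl30*), 4 in Ept2 (*Rpl27*, *Rpl30*, *Rps24* and *Rps3a*), 3 in Ept6 (*Rpl39l1*, *Rps4y2* and *Rpsa*) and 2 in Ept9 (*Rpl39l1* and *Rps27l*). Over all probe sets such p-values made up 7.50%, 14.4%, 10.7% and 11.01%.

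The intervals of the bright genes were narrow on the scale of the deposited signal. Whether the signal stays proportional to RNA so near the top of the measured range was not tested, so the bounds are bounds on signal. The standard deviation of these genes within lines had a median of 0.064 on the log2 scale. It was 0.076 for the 280 other probe sets with a mean signal of at least 10000, and 0.19 for all probe sets tested. The 95% intervals of the line contrasts reached 0.12 to 0.21 log2 units to each side. In the fit each gene's spread was drawn towards a value common to all probe sets. This widened the intervals of all bright genes, most strongly those of the steadiest. *Rpl27*, with a standard deviation within lines of 0.032, had a standard error of 0.056 in each contrast. Over the 39 genes the outermost bounds were 0.85- and 1.21-fold in Ept1, 0.84- and 1.30-fold in Ept2, 0.67- and 1.11-fold in Ept6, and 0.84- and 1.34-fold in Ept9. The lower of these bounds in Ept6 and the upper ones in Ept2 and Ept9 belong to *Rpl39l1*. In the 7 dim genes tested the median standard deviation within lines was 0.33, and the bounds were far wider, down to 0.31-fold and up to 3.37-fold.

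**Figure D2:**
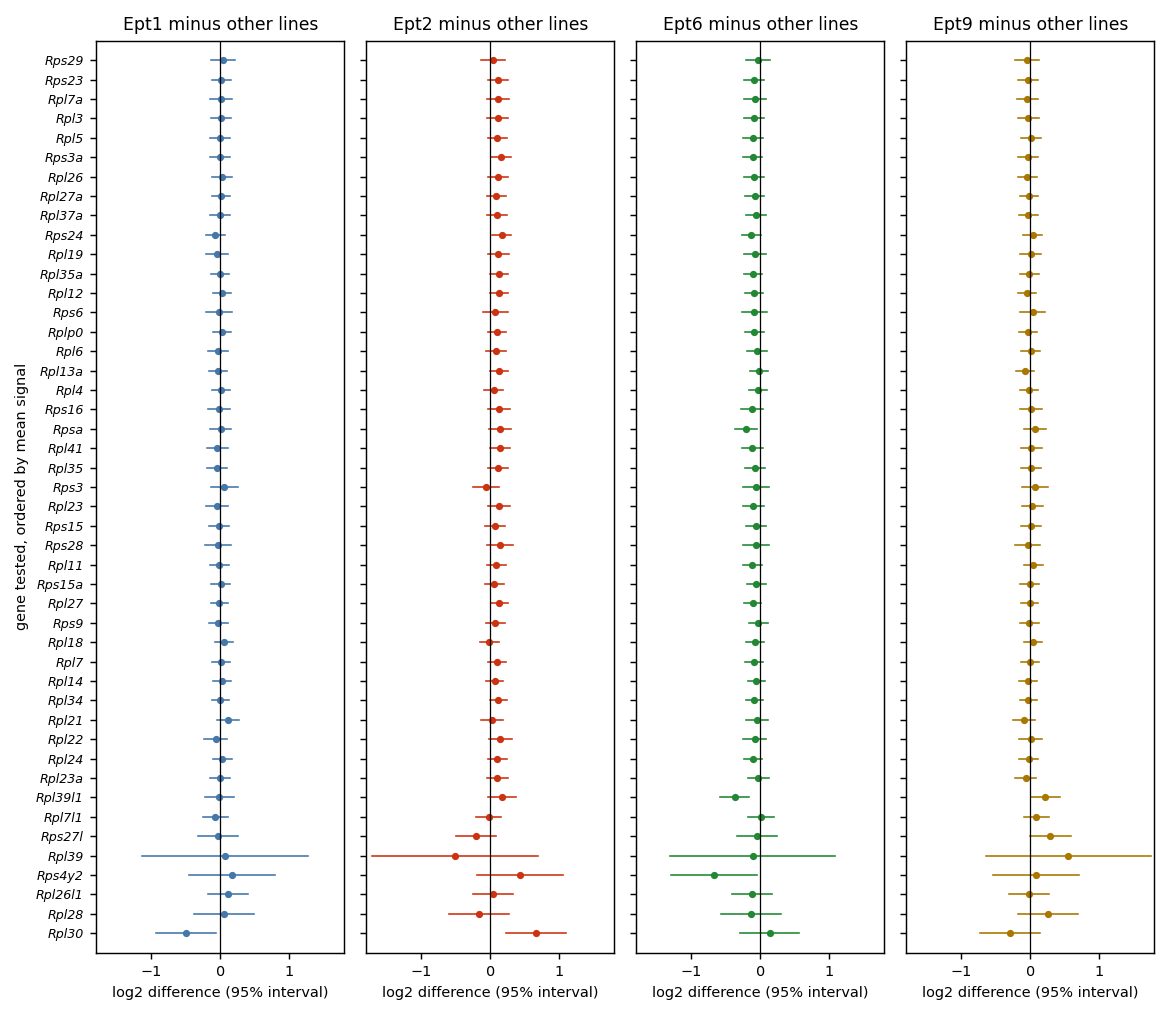
Difference of each line from the mean of the other 3 for the 46 genes tested (rows, ordered by mean signal), as log2 differences with 95% intervals from the fit over all probe sets. In Ept6 all 39 bright genes lie below 0 and in Ept2 37 of 39 lie above it, most of them with intervals that hold 0.

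The bright genes moved together from array to array, by small amounts. In Ept2 the contrast was above 0 for 37 of 39 bright genes, with a median of 0.11 (1.08-fold), and for 40 of all 46 genes tested, with a median of 0.10. In Ept6 it was below 0 for 39 of 39 bright genes, with a median of -0.086 (0.94-fold), and for 44 of 46 tested. For Ept1 the median over the 46 genes was -0.0028, with 22 above 0, and for Ept9 it was -0.0088, with 21 above 0. Medians over all probe sets tested were 0.010 in Ept1, 0.0081 in Ept2, 0.0091 in Ept6 and -0.014 in Ept9. Large and small subunit genes gave like values: the medians of the bright genes were 0.11 and 0.093 in Ept2, and -0.086 and -0.076 in Ept6. Since the genes share arrays, their counts are not counts of independent observations, and no p was given to the shared shift.

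In Ept2 a single array carried much of it. The highest of the 12 signals fell on Ept2 replicate 2 in 33 of the 39 bright genes, and the lowest on an Ept6 array in 27. The bright genes lay on Ept2 replicate 2 a median of 0.18 log2 units above their own means, and on the other 2 Ept2 arrays 0.0093 and 0.032 above. The 3 Ept6 arrays read 0.061 to 0.063 below those means, and all Ept1 and Ept9 arrays lay between -0.037 and 0.043. Ept6 thus had 3 like arrays, whereas in Ept2 1 array stood apart. Without Ept2 replicate 2 the median of the 46 genes was 0.046 in Ept2 and -0.068 in Ept6. On that array 37 of the 39 bright genes read above their own mean, all but *Rpl21* and *Rps3*. *Rps3*, which encodes a small subunit protein that also acts in DNA repair, had its lowest signal there, 24028, against 27400 to 32734 on the other 11 arrays.

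**Figure D3:**
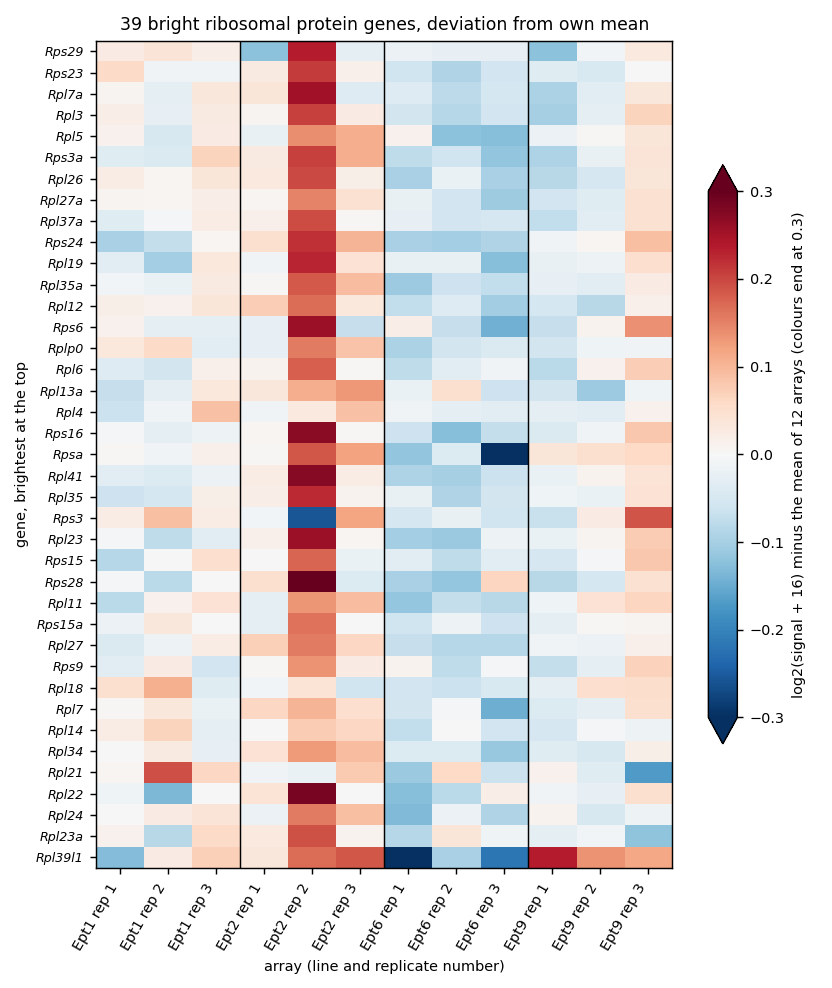
Deviation of log2(signal + 16) from the gene's own mean over the 12 arrays, for the 39 bright ribosomal protein genes (rows, brightest at the top) on each array (columns, by line and replicate number), red above and blue below the mean. The column of Ept2 replicate 2 is red in nearly all rows (median 0.18), *Rps3* being blue there, and the 3 columns of Ept6 are mostly pale blue (medians from -0.061 to -0.063).

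Other bright genes shared part of this shift. The 280 other bright probe sets carry no ribosomal protein symbol and have a mean signal of at least 10000. They were not matched to the ribosomal protein genes in brightness, and *Nop10*, with a mean of 10753, was dimmer than every bright ribosomal protein gene. These probe sets lay 0.099 above their means on Ept2 replicate 2 and 0.028 to 0.053 below on the Ept6 arrays. Their median contrast was 0.035 in Ept2 and -0.059 in Ept6. With each array centred on these probe sets, the medians of the bright ribosomal protein genes were 0.041 in Ept2, with 32 of 39 above 0, and -0.014 in Ept6, with 13 of 39 above 0. After quantile normalization they were 0.0016 in Ept2 and 0.0032 in Ept6, with 20 of 39 above 0 in each. Quantile normalization gives every array the same set of values, so genes that fill the top ranks of every array come out nearly equal by its construction. The 33 bright probe sets that name a ribosomal protein gene beside other symbols, which were left out of the 48 genes, lay 0.18 above their means on Ept2 replicate 2 and 0.062 to 0.071 below on Ept6. Of the 35 such probe sets tested 0 were called by the F test or in any line.

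**Figure D4:**
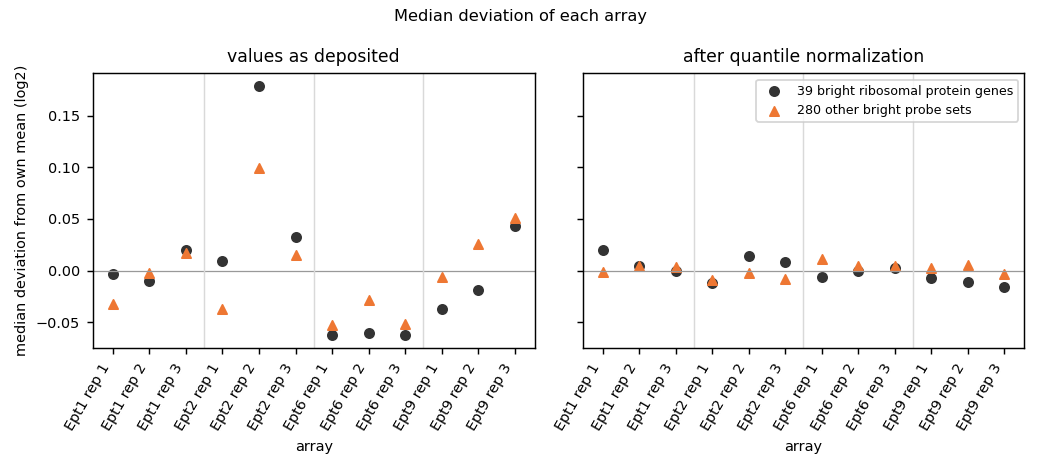
Median deviation of each array from the 12-array mean of each gene (log2), for the 39 bright ribosomal protein genes (circles) and 280 other bright probe sets (triangles), with the deposited values at left and after quantile normalization at right. Ept2 replicate 2 stands highest at left for both sets, at 0.18 and 0.099, and the medians at right lie within 0.021 of 0.

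Covariation of the bright genes can also be given pair by pair. Over the 12 arrays the median Pearson correlation of the 741 pairs of bright ribosomal protein genes was 0.69, against 0.27 between the other bright probe sets and 0.38 between a gene of the first set and a probe set of the second. All pairs share the same arrays, so these correlations hold the array shift described above. Without Ept2 replicate 2 the medians were 0.48 and 0.20.

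The lines also differed in a measure of RNA quality. For *Gapdh* the log2 difference between its 3′ and its 5′ control probe set, which grows as RNA is degraded or copied incompletely, was 0.31 to 0.42 in Ept2, 0.088 to 0.20 in Ept6, 0.25 to 0.26 in Ept1 and 0.17 to 0.28 in Ept9. Within Ept2 this difference was 0.40, 0.31 and 0.42 on replicates 1 to 3, lowest on the array that carried much of the shift. All Ept2 values lay above those of the other lines, so a fit with this covariate cannot fully separate it from the line. With this difference as a covariate the median over the 46 genes was larger, 0.19 in Ept2 and -0.16 in Ept6, and 0 genes were called. Its part in the shift was not tested. Exact permutation over the 15400 ways to place 12 arrays in 4 groups gave an unadjusted p under 0.05 for 14 of the 46 genes, where 14.2% of all probe sets had one. After adjustment over all probe sets the lowest of these was 0.106, for *Rpl27*, and 0 of all 18626 probe sets fell under 0.05. The part of the array shift in these p-values was not tested.

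Among single genes, *Rpl39l1* had the smallest F p and the widest range of the bright genes. Its signals were 11208, 12482 and 12893 in Ept1, 12559, 13782 and 13948 in Ept2, 8498, 11456 and 10557 in Ept6, and 14453, 13464 and 13289 in Ept9. The Ept6 arrays were low, but 1 of them lay above the lowest Ept1 array, so the groups overlapped. The mean in Ept6 was 10170 ± 1516 (SD, n = 3), 0.77-fold the other lines (log2 difference -0.37 ± 0.094 SE, limma adjusted p = 0.218). In Ept9, whose segment lies on the same chromosome 10 as this gene, the contrast was 0.22 ± 0.094 (limma adjusted p = 0.431). With a prior variance that follows the mean signal (limma's trend option) the gene was called, at an adjusted F p of 0.0266 and an adjusted p of 0.0225 in Ept6. Under that option 2.25% of all probe sets were called by the F test, and the next ribosomal protein gene had an adjusted p of 0.0805. Over all alternatives the adjusted p of the Ept6 contrast ran from 0.0225 to 0.835, and the contrast itself from -0.47 to -0.25 as single arrays were left out.

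**Figure D5:**
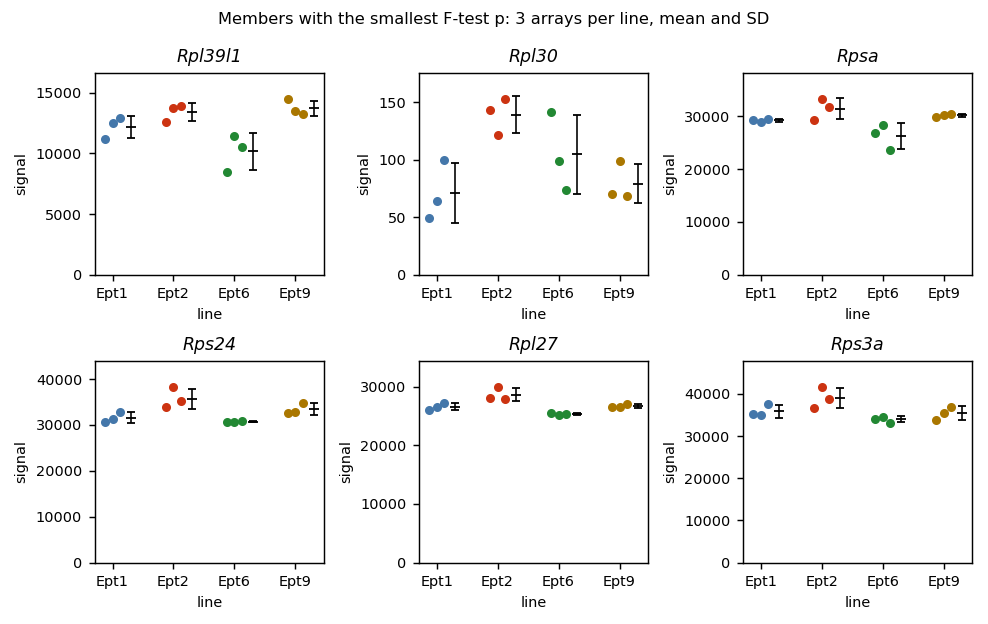
Signals (array intensity, axes from 0) of the 6 genes with the smallest F-test p on the 3 arrays of each line (points), with the mean and SD beside them. The Ept6 arrays of *Rpl39l1* and *Rpsa* lie lowest by mean, 10170 and 26269, while the arrays of *Rps24* and *Rps3a* differ by at most 1.25-fold between the highest and the lowest.

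*Rpsa* encodes a small subunit protein that is also known as the laminin receptor. It gave 29244, 28977 and 29501 in Ept1, 29266, 33172 and 31739 in Ept2, 26860, 28346 and 23601 in Ept6, and 29934, 30142 and 30403 in Ept9. All 3 Ept6 arrays lay below all 9 others, a pattern that 6 of the 46 genes showed: *Rpsa*, *Rpl27*, *Rpl35a*, *Rpl41*, *Rps16* and *Rps23*. In Ept6, 1.93% of all probe sets had 3 arrays apart from the rest in either direction, 1.07% below. All 6 genes belong to the bright set, whose values were low on the Ept6 arrays together. The contrast of *Rpsa* was -0.21 ± 0.071 SE (0.87-fold, limma adjusted p = 0.360, exact permutation p among the lines 0.0021). Its other bright probe set, with a mean of 25232, gave -0.11, and the dimmer one, with a mean of 7533, gave 0.015. In Ept2 the probe sets gave 0.14, 0.17 and -0.030, from the brightest down. Both the size and the sign of the difference thus rested on the probe set.

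*Rpl27*, a large subunit gene on chromosome 10, had the smallest exact permutation p, 0.00058. Its signals were 26010, 26528 and 27200 in Ept1, 28152, 29875 and 27977 in Ept2, 25550, 25252 and 25266 in Ept6, and 26610, 26458 and 27096 in Ept9. The 3 Ept2 arrays lay above all others and the 3 Ept6 arrays below all others. With it, *Rpl34* and *Rpl7* had 3 Ept2 arrays above the rest, 3 of 46 genes, where 3.59% of all probe sets in Ept2 had 3 arrays apart in either direction and 1.92% above. No tested gene had 3 arrays apart in Ept1 (background 1.17%) or Ept9 (2.68%). The contrasts of *Rpl27* were 0.13 ± 0.056 SE in Ept2 (1.09-fold, limma adjusted p = 0.329) and -0.11 in Ept6 (limma adjusted p = 0.537).

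The other genes with arrays apart showed how small these gaps were. *Rpl34* had 23090, 24506 and 23923 in Ept2 and 20722 to 22862 on the 9 arrays of the other lines. *Rpl7* had 25986, 26714 and 25811 in Ept2 and 22495 to 25751 elsewhere. In both genes the lowest Ept2 array stood just above the highest of the rest. *Rpl35a* had 30236, 31237 and 30988 in Ept6 and 31907 to 37023 elsewhere. *Rpl41*, which encodes the smallest protein of the large subunit, had 27199, 27085 and 27768 in Ept6 and 28181 to 35060 elsewhere. *Rps16* had 28116, 26868 and 27927 in Ept6 and 28513 to 35397 elsewhere, and *Rps23* had 38838, 38037 and 38927 against 39214 to 46831. For these 4 genes the highest of the other arrays was Ept2 replicate 2.

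A few bright genes departed from the common order of lines. By the mean of log2(signal + 16), Ept2 was highest in 34 of the 39 genes and Ept6 lowest in 34. On that scale *Rpl18*, *Rpl21* and *Rps29* were highest in Ept1, and *Rps3* and *Rpl39l1* in Ept9. *Rps29* was nearly level in Ept1 and Ept2, and by mean signal Ept2, at 42880, lay above Ept1, at 42645. *Rpl21* gave 22175, 25258 and 23071 in Ept1, 21945, 21797 and 23344 in Ept2, 20444, 23031 and 21115 in Ept6, and 22278, 21547 and 19626 in Ept9. Its Ept1 arrays overlapped those of every other line. The lowest log2 mean stood in Ept9 for *Rpl13a*, *Rpl21*, *Rpl23a* and *Rps29*, and in Ept2 for *Rps3*, whose mean signals of 27913 in Ept2 and 27827 in Ept6 have the opposite order. From the lowest to the highest array the bright genes spanned a median of 1.23-fold, from 1.11-fold in *Rpl14* to 1.41-fold in *Rpsa* and 1.70-fold in *Rpl39l1*.

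Both *Rps24* and *Rps3a*, genes of the small subunit, were highest in Ept2. *Rps24* gave 30613, 31184 and 32893 in Ept1, 33880, 38161 and 35154 in Ept2, 30630, 30532 and 30772 in Ept6, and 32511, 32909 and 34861 in Ept9. *Rps3a* gave 35132, 34959 and 37697 in Ept1, 36666, 41545 and 38871 in Ept2, 34169, 34532 and 33173 in Ept6, and 33790, 35492 and 37013 in Ept9. In each gene the Ept2 arrays overlapped those of another line. The Ept2 contrasts were 0.16 ± 0.062 SE for *Rps24* (limma adjusted p = 0.263) and 0.15 ± 0.065 for *Rps3a* (limma adjusted p = 0.320). A second, dim probe set of *Rps24* with a mean of 222 gave -0.24 in Ept2, of opposite sign.

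*Rpl30* was read by a dim probe set only. It gave 49.6, 63.9 and 100 in Ept1, 143.5, 121.3 and 152.4 in Ept2, 141.7, 99.1 and 73.7 in Ept6, and 70.5, 98.8 and 68.2 in Ept9. The Ept2 arrays were high, with 1 Ept6 array among them. The Ept2 contrast was 0.66 ± 0.20 SE (limma adjusted p = 0.163), whereas the bright probe sets that name *Rpl30* beside other symbols gave 0.19 and 0.11. *Rpl14* showed the same split between probe sets: its bright one gave 0.061 in Ept2 and the dim one, with a mean of 80.8, gave 0.59 (limma adjusted p = 0.106). For *Rpl7l1* the brighter probe set gave -0.025 in Ept2 and the other, with a mean of 770, gave 0.10.

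Dim probe sets varied widely within a line. *Rpl39*, an X-linked large subunit gene, gave 197.1, 105.6 and 358.9 in Ept1, 116.6, 249.9 and 95.5 in Ept2, 346.8, 56.3 and 262.7 in Ept6, and 463.5, 122.6 and 294.7 in Ept9. All lines overlapped, and the array extremes lay 8.23-fold apart. *Rps4y2* gave 106.0, 97.8 and 240.6 in Ept1, 187.6, 120.1 and 177.2 in Ept2, 121.7, 46.1 and 94.7 in Ept6, and 154.1, 122.9 and 114.0 in Ept9. Its Ept6 contrast of -0.68 ± 0.28 SE (limma adjusted p = 0.437) rested on low signals that overlapped those of the other lines. *Rpl28* ran from 66.9 to 161.5 and *Rpl26l1* from 89.9 to 155.1, with the lowest and the highest array of *Rpl26l1* both in Ept9.

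Several named genes are known for functions outside the ribosome or for a regulatory role. *Rpl5* and *Rpl11*, whose proteins with 5S ribosomal RNA bind the p53 regulator Mdm2, had contrasts from -0.11 to 0.10 and from -0.12 to 0.089 over the 4 lines. *Rpl22*, a large subunit gene known for its role in lymphocyte development, ran from -0.083 to 0.14. *Rps6* ran from -0.087 to 0.072 and *Rplp0* from -0.086 to 0.095. *Rps27l*, a p53-responsive copy of *Rps27*, gave 302.0, 313.8 and 261.0 in Ept1, 296.2, 313.3 and 197.4 in Ept2, 319.6, 265.4 and 282.7 in Ept6, and 388.9, 309.8 and 348.7 in Ept9. The Ept9 arrays overlapped the rest, and the contrast was 0.29 ± 0.13 SE (limma adjusted p = 0.453). *Rps27* itself had no probe set of its own.

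Most ribosomal protein genes on the chromosome of a line's own segment had contrasts near those of the other members. Whether a gene lies inside the COP segment is not given in the sources used here. On chromosome 6, *Rps29* had a contrast of 0.037 in Ept1. On chromosome 3, *Rpl12*, *Rpl35* and *Rpl7a* had contrasts of 0.11 to 0.12 in Ept2 and of -0.097 to -0.074 in Ept6, beside the medians of 0.10 and -0.086 over all 46 genes. The 7 tested genes on chromosome 10 had a median of -0.0058 in Ept9, from -0.069 for *Rpl23a* to 0.22 for *Rpl39l1*.

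Genes that work with the ribosome were followed through lists of ribosome biogenesis, RNA polymerase I, translation factors, the mTOR and S6 kinase pathway, and the ribosomal proteins of mitochondria. Of 59 biogenesis genes tested, 14 of RNA polymerase I, 35 translation factors, 23 of the mTOR and S6 kinase list and 73 mitochondrial ribosomal proteins, 0 were called by the F test or in any line. At an unadjusted p under 0.05 the F test gave 2, 2, 1, 1 and 7 genes. In Ept2 the median contrast was -0.020 for biogenesis, with 25 of 59 genes above 0, against 0.10 for the ribosomal protein genes. It was 0.026 for translation factors (24 of 35 above 0), 0.049 for mitochondrial ribosomal proteins (55 of 73), 0.092 for RNA polymerase I (9 of 14) and 0.052 for the mTOR list (19 of 23). In Ept6 it was 0.041 for biogenesis (32 of 59 above 0), -0.048 for translation factors (10 of 35), -0.060 for mitochondrial ribosomal proteins (22 of 73), -0.010 for RNA polymerase I (6 of 14) and -0.0029 for the mTOR list (10 of 23).

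Single partners differed in size and sign. *Fbl*, the methyltransferase of nucleolar RNA, had contrasts of -0.10 in Ept2 and 0.089 in Ept6, and *Ncl*, which encodes nucleolin, -0.0013 and -0.059. *Eef1a1*, the elongation factor that brings aminoacyl-tRNA to the ribosome, was about as bright as the ribosomal proteins with a mean of 30854, and gave 0.016 in Ept2 and -0.028 in Ept6. *Rack1*, a scaffold protein bound to the small subunit, gave 0.13 and -0.081. *Rps6kb1*, an S6 kinase, gave -0.26 in Ept1, 0.26 in Ept2, -0.29 in Ept6 and 0.29 in Ept9 (SE 0.14 each, limma F test, adjusted p = 0.317). *Larp1* gave 0.072, 0.14, -0.0029 and -0.21 in the same order (SE 0.091, limma F test, adjusted p = 0.523).

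The tissue label was checked against its markers. *Prl* (prolactin) had a mean signal of 44688, *Gh1* (growth hormone) of 33720 and *Cga* (the common subunit of the glycoprotein hormones) of 32877. *Avp* and *Oxt*, listed here for the posterior lobe and nerve, lay below the filter at 25.5 and 45.4. *Pomc*, the hormone gene of corticotrophs, lay below it too, at 63.1. Low values of these genes do not show that a tissue or cell type was absent. In bulk tissue, fewer cells of a type and less RNA per cell cannot be told apart. Gonadotroph markers were above 0 in Ept2 for 5 of 5 genes, with summed signals of 35042 to 41682, and in Ept6 for 0 of 5, with 29582 to 31388. Ept1 had 31450 to 37647 and Ept9 32134 to 35174. Markers of folliculostellate and stem cells ran likewise, 4 of 4 tested above 0 in Ept2 (1446 to 1922) and 0 of 4 in Ept6 (994 to 1254), with 1068 to 1413 in Ept1 and 1100 to 1333 in Ept9. Lactotroph and somatotroph markers were above 0 for 2 of 5 genes in Ept2 and 3 of 5 in Ept6, with sums of 92457 to 98094, 82754 to 86202, 85376 to 90346 in Ept1 and 84926 to 90331 in Ept9. Some markers of these lists, picked after their values were seen, were highest on another array than the ribosomal protein genes. *Fshb* gave 677.9, 233.6 and 331.2 on Ept2 replicates 1 to 3, *Gnrhr* 946.3, 243.0 and 376.6, and *S100b* 971.1, 703.7 and 751.3. Each of them was highest on replicate 1. Values of the other markers are not given here by array. *Cga* made up most of the gonadotroph sum. Thyrotroph markers were above 0 for 2 of 2 genes in Ept2 (sums of 10800 to 22082, median contrast 0.51) and 0 of 2 in Ept6 (8032 to 9483, -0.36), with 9531 to 13183 in Ept1 and 8532 to 10075 in Ept9. Markers of the posterior lobe and nerve were above 0 for 3 of 3 genes in Ept2 (2062 to 3067) and 1 of 3 in Ept6 (1872 to 2097), with 2067 to 2118 in Ept1 and 1902 to 2084 in Ept9. Red blood cell genes had a median contrast of -0.46 in Ept6 (13217 to 14370) and 0.50 in Ept9 (18392 to 29666), with 15628 to 17569 in Ept1 and 18379 to 19690 in Ept2. *Dio2* and *Gfap* were the other markers of pituitary cells below the filter. Of the marker genes tested 0 were called, and their part in the shift of the ribosomal protein genes was not tested.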

How the data were processed

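Total RNA of the anterior pituitary was labelled with biotin and hybridised by the authors to 12 arrays, 1 per sample, which were grouped by line from their titles. The value table deposited by the authors holds linear intensity values (signals) for 31099 probe sets, scaled so that the mean of each array, trimmed by 2% at each end, is 500.0. The sources used here name neither the software nor a background correction. Gene symbols came from the platform annotation: 20832 probe sets have 1 symbol, 436 several and 9831 none. All 48 members have a chromosome in GRCr8.

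From the deposited intensities log2(signal + 16) was computed, which understates changes of dim genes. Left out were 57 control probe sets and 12416 with a mean under the 40th percentile (69.5), and 18626 were tested with limma 3.58.1 in R 4.3.3 in a model of 4 line means, with Benjamini-Hochberg adjustment at 0.05. Exact permutation used 15400 partitions. Pairs of arrays correlated at 0.959 to 0.970, and none were identical. The number of arrays limits the precision. The tests were tested on simulated data.

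The members and all lists were chosen with earlier results of these data known. The named genes were those called, the 6 smallest F p, the 6 brightest and 6 dimmest, the 4 with the largest disagreement between probe sets, up to 3 per line on the segment's chromosome, named copies of ribosomal proteins, and *Rpl22*, *Rps6*, *Rplp0*, *Rpsa*, *Rpl5* and *Rpl11*. Other names were chosen after their values were seen. Marker lists of corticotrophs, endothelium, stroma and leukocytes were also fitted, with 0 genes called and median contrasts of -0.25, 0.17, -0.17 and -0.21 in Ept2 and 0.22, -0.094, -0.0039 and -0.042 in Ept6. Centring on other bright probe sets and the addition of probe sets with several symbols were alternatives chosen after seeing the data. Protein sequences were not used here.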

Additional observations from a re-analysis of the deposited data

How the results depend on the processing

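No ribosomal protein gene was called among the 4 lines or in any line under quantile normalization, either other pseudocount (1 or 64), median centring, array weights, the *Gapdh* covariate, the filter at the 60th percentile or none, averaging a gene's probe sets, or without any 1 of the 12 arrays. The exception was the eBayes trend, with 1 gene called among the lines and 1 in Ept6, both times *Rpl39l1*. Over the same alternatives 36 to 419 probe sets of all were called among the lines, where the values as reported gave 184.

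The Ept2 median of 0.10 became 0.00060 after quantile normalization, 0.037 with centring on other bright probe sets, and 0.19 with the *Gapdh* covariate. It ran from 0.046 (without Ept2 replicate 2) to 0.13 over the fits without 1 array. The Ept6 median of -0.086 became -0.0051, -0.014 and -0.16 under those settings and ran from -0.096 to -0.068. The Ept1 median ran from -0.019 to 0.011 and the Ept9 median from -0.025 to 0.0057, so these have no settled sign. Median centring gave 0.067 in Ept2, -0.11 in Ept6 and 0.037 in Ept9.

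Many small contrasts turned sign. As deposited, 0 of the 39 bright genes lay above 0 in Ept6. There were 20 after quantile normalization and 13 with centring on other bright probe sets. In Ept2 the counts were 37, 20 and 32 in the same order. The contrasts that follow are of named genes only, each in the line where its contrast was largest in size. Under quantile normalization Ept2 became -0.0026 for *Rpl14*, -0.030 for *Rpl26*, -0.015 for *Rpl3*, -0.015 for *Rpl7a*, -0.0012 for *Rplp0* and -0.00044 for *Rps23*, and Ept6 became 0.0032 for *Rps6*. Centring on other bright probe sets gave -0.0033 for *Rpl14* in Ept2. The *Gapdh* covariate gave 0.026 for *Rpl26l1* in Ept6, and averaging its probe sets gave -0.037 for *Rps24* in Ept2. *Rps29* in Ept9 became 0.0011 with median centring and ran from -0.077 to 0.00011 over the fits without 1 array (0.00011 without Ept9 replicate 1). None of these was called, and the cause was not tested. With line means removed, correlations of same-numbered arrays of different lines ran from -0.14 to 0.073 over 18 pairs. Those of arrays with other numbers ran from -0.10 to 0.11. An array of the same number was the best match for 4 of 12 arrays. No pairing by number was seen, which does not establish that there was none. With the replicate number as a block 84 probe sets of all and 0 members were called among the lines, and the medians stayed 0.10 in Ept2, -0.086 in Ept6, -0.0028 in Ept1 and -0.0088 in Ept9.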

Other observations

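The array carries a control probe set for 5S ribosomal RNA, which was left out of the tests. Its signals were 655.2, 492.6 and 483.0 in Ept1, 697.4, 830.8 and 954.1 in Ept2, 309.7, 457.8 and 329.7 in Ept6, and 529.8, 460.2 and 420.6 in Ept9. The 3 Ept2 arrays lay above all others. The means were 544 ± 96.8 in Ept1, 827 ± 128 in Ept2, 366 ± 80.4 in Ept6 and 470.2 ± 55.3 in Ept9 (SD, n = 3, exact permutation p among the lines 0.0014). This probe set was picked after its values were seen, and how the labelling treats an RNA without a poly(A) tail is not given in the sources used here.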
